A study of Homo sapiens with 51 samples.

Results

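HMLE-TWIST1 cells carrying DsiRNA duplexes against both SUV39H1 and SUV39H2 for 2 days were set against HMLE-TWIST1 cells carrying a scramble duplex for the same time. HMLE is an immortalised line of human mammary epithelial cells, and HMLE-TWIST1 is its derivative that overexpresses TWIST1, a transcription factor that drives cells from an epithelial to a mesenchymal state. The 6 libraries, 3 knockdown and 3 scramble, were taken by the names of their columns from a series of 51 libraries. All 19777 genes listed for them were read, and 17723 passed the filter on low values and were tested. Both groups share the TWIST1 overexpression, the medium, the 48 h with duplex and total RNA libraries depleted of ribosomal RNA. For comparison, HMLE cells with the same 2 duplex treatments at day 2, and HMLE-TWIST1 cells at day 4 (48 h with duplex and 48 h more in fresh medium), also had 3 libraries per group. The labels do not say whether the 3 libraries of a group came from separate cultures, so p-values measure only the spread between these samples.

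SUV39H1 and SUV39H2 are a pair of histone methyltransferases that place the trimethyl mark on lysine 9 of histone H3 (H3K9). The mark is bound by HP1 proteins (CBX1, CBX3, CBX5) and is known for packing repeats near centromeres and other silent chromatin. In epithelial cells that turn mesenchymal, H3K9 methylation has been linked to silenced epithelial genes. A second system runs through the results below. Cells sense double-stranded RNA with helicases such as DDX58 (RIG-I) and IFIH1 (MDA5), signal through MAVS to the factors IRF3 and IRF7, and release interferons. Interferons act through the receptor chains IFNAR1 and IFNAR2, the kinase JAK1 and transcription factors such as STAT2 and IRF9 to switch on interferon-stimulated genes.

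Read totals over the listed genes ran from 10589420 to 15662385 in the 6 libraries, and between 18923 and 19057 genes had a read. The most abundant gene took 2.41 to 3.09% of reads. Levels are given as CPM, which are reads scaled to library size. Fold changes are log2 values from a limma fit, each with its standard error (SE), and are called at an adjusted p (Benjamini-Hochberg over all genes tested) below 0.05.

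The libraries carried the mesenchymal profile that the line's name implies. TWIST1 had 399, 388 and 480 CPM in knockdown libraries, against 575, 551 and 634 CPM in scramble libraries, and its reads do not separate the introduced copy from the endogenous gene. VIM, the mesenchymal intermediate filament, had 2187, 2061 and 2032 CPM in knockdown libraries and 2640, 2586 and 2539 CPM in scramble libraries. The defining epithelial adhesion genes CDH1 and EPCAM were near 0 in both groups, while the whole epithelial list summed to 369 to 395 CPM in knockdown libraries and 299 to 303 CPM in scramble libraries. CDH1 (E-cadherin) had 1, 0 and 3 reads in knockdown libraries and 0, 0 and 1 in scramble libraries, and EPCAM had 0, 2 and 2 reads in knockdown libraries and 1, 2 and 0 in scramble libraries. The label gives the cell type as epithelial cells of the mammary gland.

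Both targeted genes fell. SUV39H1 had 4.76, 4.66 and 4.17 CPM in knockdown libraries, against 13.8, 11.3 and 11.5 CPM in scramble libraries. Its log2 fold change was -1.39 (SE 0.19, limma adjusted p = 4.28e-05), which left 37.2% of the scramble level. SUV39H2 had 20.9, 21.3 and 15.3 CPM in knockdown libraries, against 45.01, 43.4 and 43.3 CPM in scramble libraries. For SUV39H2 the log2 fold change was -1.20 (SE 0.13, limma adjusted p = 2.21e-06), and 43.7% of the scramble level was left. The groups did not overlap for either gene, and knockdown replicate 3 held the least of both. Per length, SUV39H2 was the more abundant of the pair in scramble libraries, at a mean of 12.4 RPKM (reads scaled to gene length and library size, as deposited) against 3.67 RPKM for SUV39H1.

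The fall in SUV39H2 was deeper than in HMLE cells. There SUV39H2 changed by -0.42 and kept 74.7% of the scramble level, and the difference between lines was -0.79 (limma adjusted p = 0.00715). SUV39H1 changed by -1.31 in HMLE cells, and its difference between lines of -0.09 did not pass the test (limma adjusted p = 0.874). At day 4 in HMLE-TWIST1 cells, SUV39H1 stood at 48.3% and SUV39H2 at 57.4% of scramble. The differences between days, -0.39 for SUV39H1 (limma adjusted p = 0.497) and -0.42 for SUV39H2 (limma adjusted p = 0.0856), did not pass the test. That of SUV39H2 did pass with voom weights (-0.41, limma adjusted p = 0.016). It also passed in a fit on the HMLE-TWIST1 libraries of both days alone (-0.40, limma adjusted p = 0.0381).

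**Figure D1:**
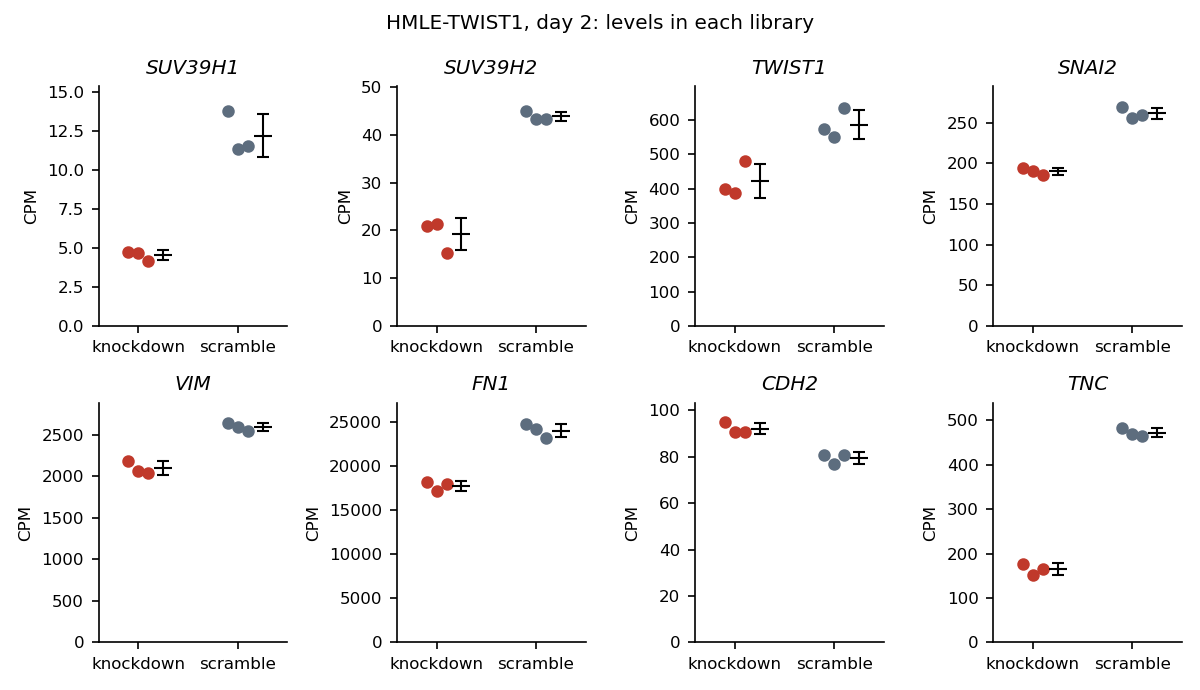
Levels of the targeted genes and of markers of the line in CPM in the 3 knockdown (left) and 3 scramble (right) libraries of HMLE-TWIST1 cells at day 2; points are libraries, and bars give the mean and SD. SUV39H1 averaged 4.53 CPM in knockdown and 12.2 CPM in scramble libraries, and SUV39H2 averaged 19.2 CPM in knockdown and 43.9 CPM in scramble libraries.

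Across all genes, 1381 rose (7.79% of those tested) and 1360 fell (7.67%). With libraries scaled to total reads instead, 1637 rose and 1058 fell, so that the share of rises among calls was 60.7% in place of 50.4%. The large changes were mostly upward. With a log2 fold change of at least 1 in size, 173 genes rose (0.976%) and 112 fell (0.632%), and with at least 2 in size, 46 rose and 1 fell. Of the 173 strong rises, 48 were in the lists of interferon-stimulated genes or of RNA sensors and interferon signalling, and of the 46 strongest, 32 were. These lists held 44 and 22 of the 17723 genes tested, and they were chosen with earlier results of these data known.

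**Figure D2:**
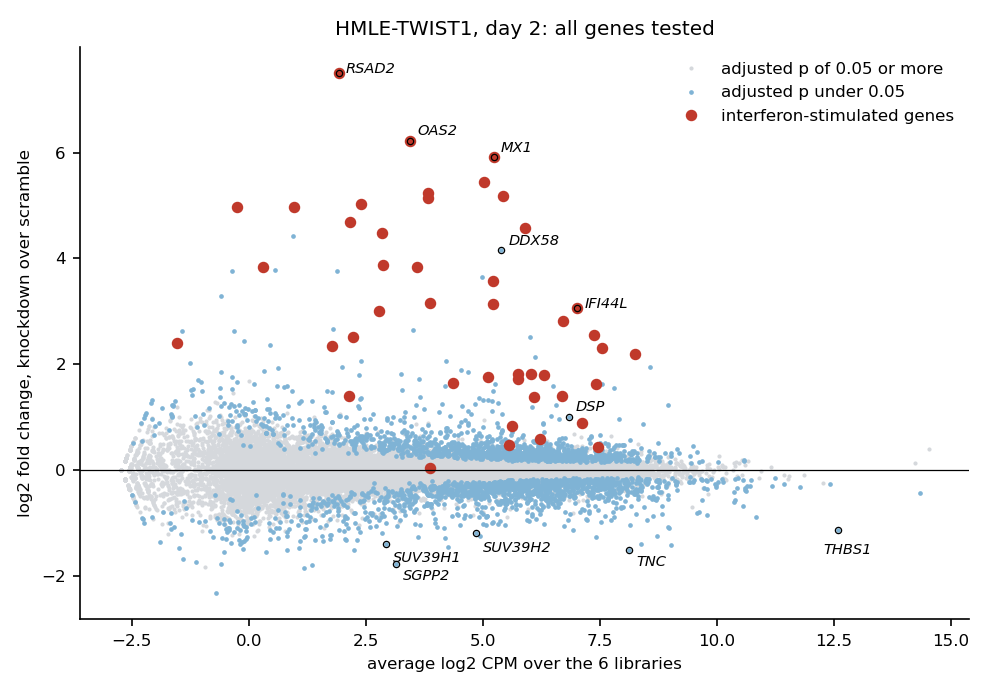
Log2 fold change of knockdown over scramble (vertical axis) against average log2 CPM (horizontal axis) for the 17723 genes tested in HMLE-TWIST1 cells at day 2, with members of the interferon list marked. The marked genes lie above 0, up to 7.51, while the bulk of genes lies about a median of 0.

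The interferon-stimulated genes rose almost without exception. Of 44 in the list, all were listed and tested, 43 rose and 0 fell, with a median log2 fold change of 2.68, where 7.79% of all genes rose and the median of all genes was 0. The exception, IFITM2, had 14.0, 14.6 and 15.8 CPM in knockdown libraries and 13.3, 14.9 and 15.0 CPM in scramble libraries (0.04, limma adjusted p = 0.953). Summed over the list, knockdown libraries held 5154 to 7019 CPM and scramble libraries 1222 to 1247 CPM. For 6 members (OASL, RSAD2, CMPK2, CXCL10, CXCL11 and RTP4) the scramble mean was below the level of the filter, 0.763 CPM. Of these, CMPK2, CXCL10 and CXCL11 passed the filter only with knockdown libraries counted, in which they were high. OASL (0.888, 1.32 and 0.995 CPM) and RSAD2 (1.15, 2.02 and 1.58 CPM) reached its level in the HMLE scramble libraries, which shared the fit. Through which libraries RTP4 passed was not examined.

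The members that act directly on viral RNA or particles made up most of the largest changes. MX1, a dynamin-like GTPase that traps viral nucleocapsids, had 235, 349 and 300 CPM in knockdown libraries, against 4.93, 4.83 and 4.34 CPM in scramble libraries, a log2 fold change of 5.91 (SE 0.13, limma adjusted p = 5.76e-12). OAS2, one of the synthetases that activate RNase L when they bind double-stranded RNA, had 82.0, 120 and 85.5 CPM in knockdown libraries, against 0.987, 1.66 and 0.827 CPM in scramble libraries (6.23, SE 0.25, limma adjusted p = 1.27e-07). Its relative OAS1 had 74.0, 106 and 86.3 CPM in knockdown libraries, against 2.53, 1.59 and 2.55 CPM in scramble libraries (5.24, SE 0.17, limma adjusted p = 1.08e-09). In all of these the groups were far apart and knockdown replicate 2 was the highest library.

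The IFIT proteins, which bind foreign RNA ends and block its translation, were also highest in knockdown replicate 2. IFIT1 had 249, 419 and 232 CPM in knockdown libraries and 12.6, 11.5 and 12.1 CPM in scramble libraries, a log2 fold change of 4.57 (SE 0.29, limma adjusted p = 9.77e-06). IFIT2 had 155, 294 and 213 CPM in knockdown libraries and 4.38, 4.54 and 5.51 CPM in scramble libraries (5.44, SE 0.23, limma adjusted p = 3.83e-07). IFIT3 had 214, 329 and 253 CPM in knockdown libraries and 8.39, 5.77 and 7.31 CPM in scramble libraries (5.18, SE 0.16, limma adjusted p = 5.92e-09). RSAD2 (viperin), an enzyme that makes a chain-terminating nucleotide, was nearly absent without knockdown, with 647, 713 and 613 reads in knockdown libraries and 1, 3 and 2 reads in scramble libraries.

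ISG15, a ubiquitin-like protein that is attached to other proteins, had 29.4, 33.5 and 39.6 CPM in knockdown libraries, against 1.73, 1.44 and 1.03 CPM in scramble libraries (4.48, SE 0.19, limma adjusted p = 1.58e-11). The ligase that attaches it, HERC5, had 22.8, 38.7 and 29.8 CPM in knockdown libraries, against 0.493, 1.30 and 0.689 CPM in scramble libraries (5.02, SE 0.37, limma adjusted p = 1.97e-06). With 0.533, 0.155 and 0.664 CPM in HMLE scramble libraries, HERC5 passed the filter only with knockdown libraries counted, in which it was high. USP18, which removes ISG15 and dampens the interferon receptor, had 24.4, 32.4 and 27.3 CPM in knockdown libraries, against 2.04, 1.73 and 1.52 CPM in scramble libraries (3.88, SE 0.13, limma adjusted p = 7.03e-13). The conjugation step and its negative regulator thus rose together. BST2 (tetherin), which holds budding virus at the cell surface, had 39.6, 49.8 and 48.2 CPM in knockdown libraries, against 2.96, 3.39 and 2.90 CPM in scramble libraries (3.83, SE 0.13, limma adjusted p = 7.03e-13).

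Members also differed widely in size of change. IFITM3, a membrane protein that blocks viral entry, had 87.9, 89.4 and 97.9 CPM in knockdown libraries, against 61.2, 61.1 and 60.6 CPM in scramble libraries, a log2 fold change of 0.59 (SE 0.09, limma adjusted p = 0.000133). A pair of chemokines of the list had no read without knockdown. CXCL10 had 54, 77 and 49 reads in knockdown libraries and no read in any of the 3 scramble libraries, and CXCL11 had 14, 8 and 5 reads in knockdown libraries and likewise none in scramble libraries. Against a floor of 3 reads over the 3 scramble libraries, CXCL10 was at least 68.2-fold higher and CXCL11 at least 10.2-fold higher. With these members at their bounds, the list's median was 2.91.

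**Figure D3:**
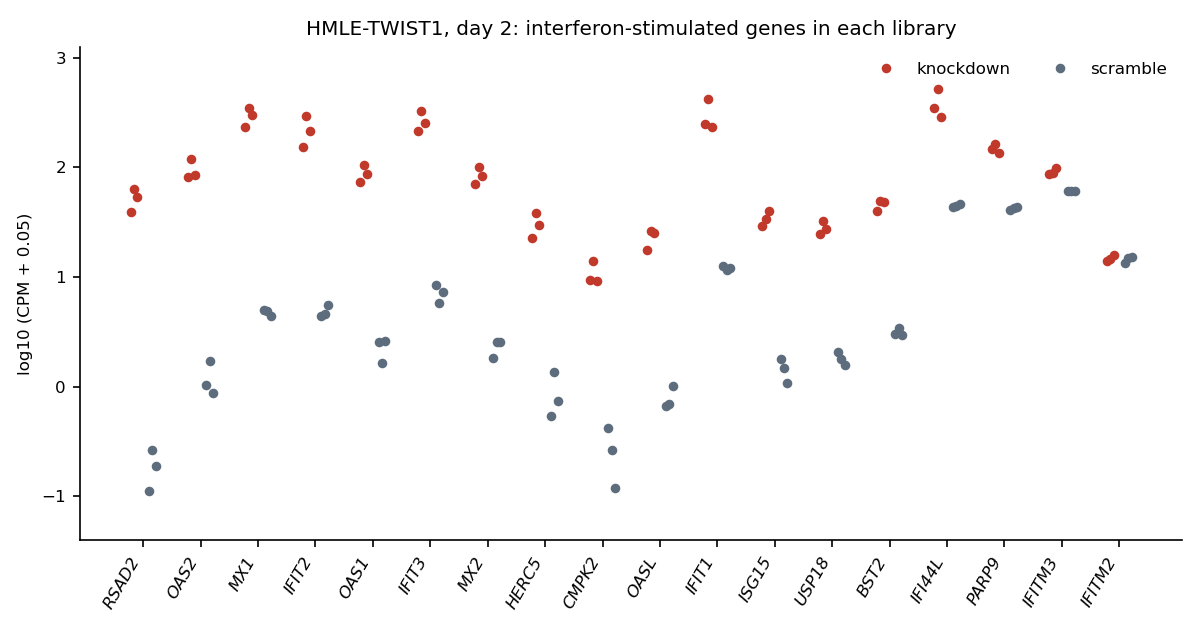
Levels of interferon-stimulated genes on a log10 scale of CPM plus 0.05, where each point is 1 of the 3 knockdown libraries (left of each pair) or 3 scramble libraries (right of each pair) of HMLE-TWIST1 cells at day 2. Knockdown points lie above scramble points for every gene shown except IFITM2, and knockdown replicate 2 is the highest point for most, such as MX1 at 349 CPM.

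The promoters of 4 of these genes are printed because they hold GAAA repeated after a gap of 2 bases, letters by which IRF factors are known to bind, and that of OAS1 because it holds no repeat with this gap. Each is the 250 bases before the gene's start, 5′ to 3′ on the gene's strand, from the RefSeq promoter table on build GRCh38.p14, whereas the files used hg19. Capitals mark every match to GAAANNGAAA or its reverse complement TTTCNNTTTC, where N is any base and overlapping matches run together. The windows lie at chr1:1013247-1013496 (plus strand) for ISG15, chr10:89392373-89392622 (plus strand) for IFIT1, chr4:88456869-88457118 (plus strand) for HERC5, chr19:17405631-17405880 (minus strand) for BST2 and chr12:112906712-112906961 (plus strand) for OAS1.
ISG15: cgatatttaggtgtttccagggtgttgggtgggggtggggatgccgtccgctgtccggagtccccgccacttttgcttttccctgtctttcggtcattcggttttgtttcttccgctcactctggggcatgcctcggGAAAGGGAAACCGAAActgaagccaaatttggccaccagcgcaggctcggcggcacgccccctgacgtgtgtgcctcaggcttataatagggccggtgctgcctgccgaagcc
IFIT1: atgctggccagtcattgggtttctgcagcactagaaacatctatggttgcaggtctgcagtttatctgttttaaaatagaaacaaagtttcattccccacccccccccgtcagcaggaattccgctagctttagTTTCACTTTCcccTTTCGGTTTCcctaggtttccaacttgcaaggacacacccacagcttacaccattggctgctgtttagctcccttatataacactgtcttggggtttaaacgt
HERC5: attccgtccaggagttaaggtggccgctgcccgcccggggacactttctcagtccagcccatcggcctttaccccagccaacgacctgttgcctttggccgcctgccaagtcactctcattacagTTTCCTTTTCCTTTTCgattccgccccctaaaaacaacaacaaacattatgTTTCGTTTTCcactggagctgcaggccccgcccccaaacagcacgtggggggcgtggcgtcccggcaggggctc
BST2: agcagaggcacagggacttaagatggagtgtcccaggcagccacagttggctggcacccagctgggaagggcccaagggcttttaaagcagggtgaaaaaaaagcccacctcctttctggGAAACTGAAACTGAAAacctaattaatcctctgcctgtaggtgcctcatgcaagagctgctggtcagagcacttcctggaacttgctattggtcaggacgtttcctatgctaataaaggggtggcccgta
OAS1: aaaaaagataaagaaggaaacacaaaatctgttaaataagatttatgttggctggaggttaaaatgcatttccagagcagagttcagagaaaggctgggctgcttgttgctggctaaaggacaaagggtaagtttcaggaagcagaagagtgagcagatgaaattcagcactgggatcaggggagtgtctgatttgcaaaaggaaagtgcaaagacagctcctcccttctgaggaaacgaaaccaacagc
ISG15 and BST2 each have 2 overlapping matches that form 1 stretch, IFIT1 has 2 separate ones and HERC5 has 3 in 2 stretches. Of the 44 interferon-stimulated genes, 36 had a window in the table and 26 of those held the motif (72.2%). Of the members of the RNA sensor and interferon signalling list that rose, 1 of 8 with a window held it (12.5%). Over all windows in the table the share was 3.02% (1061 of 35116), and over the tested genes that could be matched it was 3.57% (370 of 10360). OAS1 rose by 5.24 on the log2 scale with no match in its window, though gaaacgaaa near the window's end holds the repeat with a gap of 1 base. The match is thus a description of these letters at this gap and not of a binding site.

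The apparatus that senses RNA and passes on interferon signals rose in part. Of 28 genes written in the list, 22 were tested, 12 rose and 0 fell, with a median log2 fold change of 0.86 and a background of 7.79% of all genes. DDX58 had 150, 219 and 168 CPM in knockdown libraries, against 9.81, 9.73 and 9.86 CPM in scramble libraries (4.15, SE 0.10, limma adjusted p = 2.96e-13). IFIH1 had 94.6, 151 and 98.8 CPM in knockdown libraries, against 8.94, 8.50 and 9.10 CPM in scramble libraries (3.64, SE 0.16, limma adjusted p = 3.11e-08). Both are themselves known interferon-stimulated genes, as are IRF7 (2.65), DHX58 (2.05), IRF9 (1.93) and STAT2 (1.02), which also rose.

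Abundant members that act on double-stranded RNA rose too. EIF2AK2 (PKR), which stops translation when it binds double-stranded RNA, had 757, 873 and 659 CPM in knockdown libraries, against 325, 327 and 317 CPM in scramble libraries (1.23, SE 0.10, limma adjusted p = 5.44e-06). ADAR, which edits adenosine in double-stranded RNA and limits its sensing, had 438, 483 and 466 CPM in knockdown libraries, against 265, 248 and 243 CPM in scramble libraries (0.87, SE 0.06, limma adjusted p = 1.20e-08). IRF1 (1.32), TLR3 (1.25) and the kinase TBK1 (0.45) also rose.

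The receptor chains and the upstream adaptors of this pathway did not pass the test. The log2 fold change was 0.05 for IFNAR1, 0.07 for IFNAR2, 0.03 for JAK1, -0.14 for MAVS and 0.03 for IRF3. Of the ligands, IFNL1 had 0, 1 and 1 reads in knockdown libraries and no read in scramble libraries, below what a fold can be drawn from. IFNE had 37, 50 and 13 reads in knockdown libraries and 57, 29 and 47 reads in scramble libraries, so its groups overlapped. IFNB1 was not analysed here.

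The chemokines CCL2 and CCL8 and the death ligand TNFSF10, named after their values were seen, rose. CCL2, a monocyte chemokine, had 34.3, 48.7 and 33.0 CPM in knockdown libraries, against 8.51, 8.50 and 9.93 CPM in scramble libraries (2.07, SE 0.27, limma adjusted p = 2.68e-05). Its relative CCL8 had 106, 120 and 114 reads in knockdown libraries, against 4, 3 and 5 reads in scramble libraries (4.43, SE 0.30, limma adjusted p = 7.94e-09). With so few scramble reads and none in HMLE libraries, CCL8 entered the test only through the knockdown libraries, in which it was high. TNFSF10 (TRAIL), a death ligand, had 39.5, 66.2 and 44.0 CPM in knockdown libraries, against 13.9, 13.3 and 12.7 CPM in scramble libraries (1.86, SE 0.19, limma adjusted p = 0.000156). The NF-kB and cytokine list as a whole had 3 rises and 2 falls among 20 tested members (7.79% and 7.67% of all genes), with a median of 0.06, and at most 1 fall when any 1 of the 6 libraries was left out.

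Genes of antigen presentation through HLA class I, a list written after values were seen, also rose at lower fold changes. Of 16 members 14 rose and 0 fell, where 7.79% of all genes rose, with a median log2 fold change of 0.47. The peptide transporter TAP1 had 45.7, 58.9 and 48.6 CPM in knockdown libraries, against 18.3, 20.9 and 21.4 CPM in scramble libraries (1.33, SE 0.10, limma adjusted p = 4.60e-08). PSMB9, a subunit of the immunoproteasome, rose by 1.24 and NLRC5, an activator of class I genes, by 0.94. B2M, the light chain shared by all class I molecules, had 833, 908 and 788 CPM in knockdown libraries, against 619, 618 and 601 CPM in scramble libraries (0.46, SE 0.06, limma adjusted p = 1.60e-05).

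The interferon list rose in the comparison groups as well, with a different order of sizes. In HMLE cells at day 2, where 12.8% of genes rose, 42 of 44 members rose with a median of 2.89. The knockdown effect differed between lines for 24 members, 8 of them higher in HMLE-TWIST1 cells and 16 lower, where 7.49% of all genes were higher and 4.83% lower. MX1 rose by 5.91 in HMLE-TWIST1 cells and by 4.36 in HMLE cells, a difference of 1.55 (limma adjusted p = 0.000186). IFI44L went the other way, with 3.06 in HMLE-TWIST1 cells and 6.03 in HMLE cells, a difference of -2.97 (limma adjusted p = 9.99e-05). CCL8 and CMPK2 had no read in any of the 6 HMLE libraries, so no fold was drawn for them there. CMPK2 was still counted among the 44 members in the HMLE median and in the counts by line.

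At day 4 the same list was further raised. All 44 members were called higher in knockdown at day 4, where 19.7% of all genes were (38.3% were called in either direction), with a median of 5.40. The effect at day 2 was lower than at day 4 for 42 members and higher for 0, where 10.8% of all genes were lower and 9.08% higher (19.9% in all). OAS2 rose by 6.23 at day 2 and by 9.70 at day 4, a difference of -3.49 (limma adjusted p = 7.60e-07), where the difference comes from the joint fit of both days. BST2 rose by 3.83 at day 2 and 7.15 at day 4, with a difference of -3.33 (limma adjusted p = 3.33e-08). Day 2 thus held the smaller effect for nearly the whole list, and IFITM2 passed the test at day 4 (1.33), with a difference between days of -1.30 (limma adjusted p = 0.0267).

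**Figure D4:**
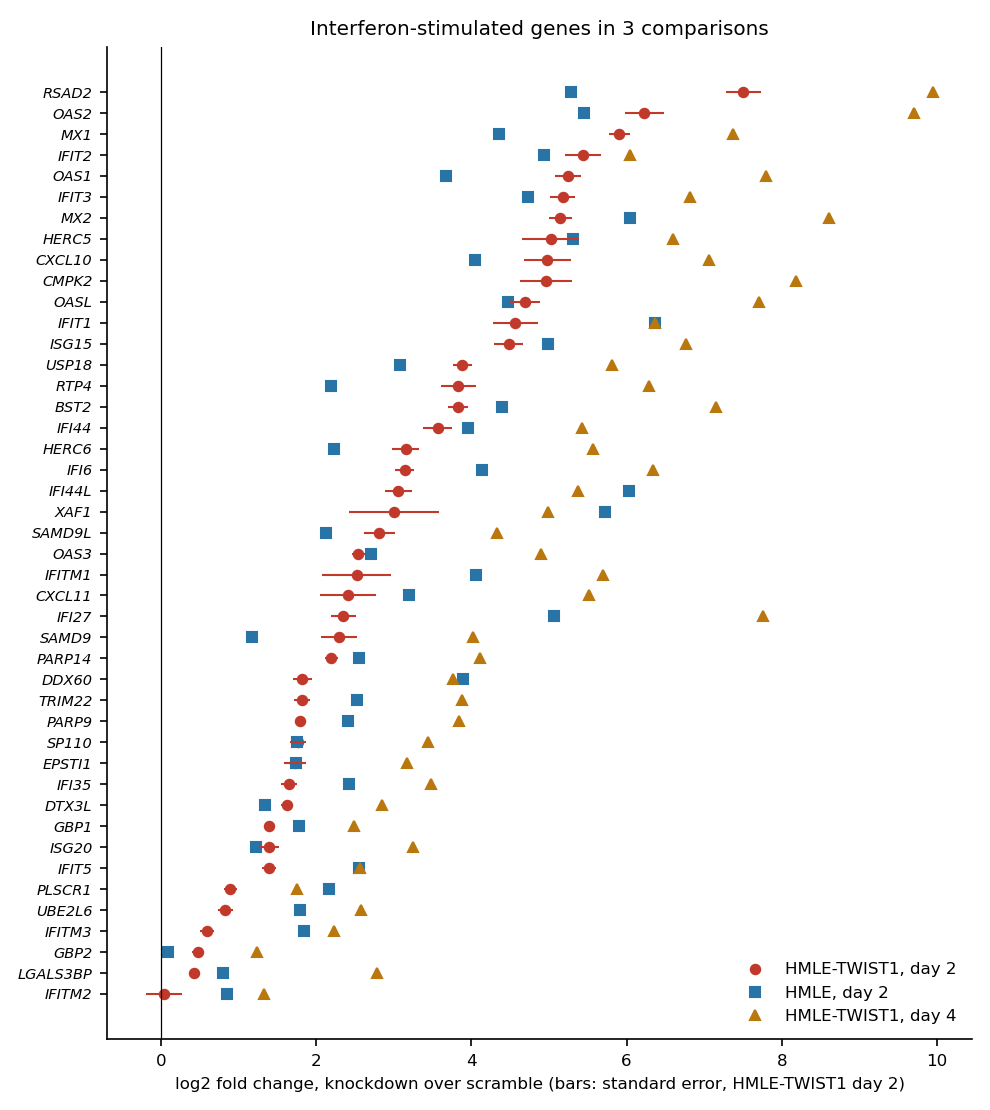
Log2 fold changes of knockdown over scramble for interferon-stimulated genes in HMLE-TWIST1 cells at day 2, beside HMLE cells at day 2 (none is drawn for CMPK2, which had no read there) and HMLE-TWIST1 cells at day 4; bars are standard errors at day 2 in HMLE-TWIST1 cells. The medians over the list, with CMPK2 counted in each, were 2.68, 2.89 and 5.40 in that order.

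Besides SUV39H1, the 8 largest falls among abundant genes without overlap were in TNC, GLUL, DKK1, SGPP2, FADS1, ALOX15B and CXCL13. TNC (tenascin C), a matrix glycoprotein of mesenchymal and wounded tissue, had 177, 152 and 166 CPM in knockdown libraries, against 483, 469 and 464 CPM in scramble libraries, a log2 fold change of -1.52 (SE 0.06, limma adjusted p = 1.83e-12). GLUL, which makes glutamine, had 328, 301 and 324 CPM in knockdown libraries, against 866, 843 and 855 CPM in scramble libraries (-1.43, SE 0.05, limma adjusted p = 1.33e-12). DKK1, a secreted inhibitor of WNT signals, had 11.2, 11.7 and 11.2 CPM in knockdown libraries, against 31.5, 29.8 and 33.6 CPM in scramble libraries (-1.46, SE 0.08, limma adjusted p = 7.75e-10). No knockdown library reached the lowest scramble library in any of the 3, and the spread inside a group was small.

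SGPP2, a phosphatase of sphingosine phosphate, had 5.61, 4.30 and 4.09 CPM in knockdown libraries, against 17.3, 13.7 and 18.3 CPM in scramble libraries (-1.79, SE 0.12, limma adjusted p = 1.20e-08). FADS1, a desaturase of polyunsaturated fatty acids, had 210, 200 and 205 CPM in knockdown libraries, against 536, 527 and 553 CPM in scramble libraries (-1.39, SE 0.06, limma adjusted p = 3.75e-11). ALOX15B, a lipoxygenase, changed by -1.34 (SE 0.12, limma adjusted p = 4.90e-07), and CXCL13, a chemokine that attracts B cells, by -1.52 (SE 0.27, limma adjusted p = 0.000553). THBS1 (thrombospondin), a matrix protein that activates TGF-beta, was by far the most abundant per length of these falls (means of 379 RPKM in knockdown and 839 RPKM in scramble libraries), with 4325, 3985 and 4124 CPM in knockdown libraries and 9198, 9174 and 8959 CPM in scramble libraries (-1.14, SE 0.05, limma adjusted p = 1.54e-11).

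Several of these falls were deeper in HMLE-TWIST1 than in HMLE cells, though ALOX15B and SGPP2 were lower on knockdown in HMLE cells too. There ALOX15B averaged 46.9 CPM in knockdown and 134.6 CPM in scramble libraries, and SGPP2 49.4 and 97.3 CPM. TNC changed by -0.36 in HMLE cells, so the difference between lines was -1.16 (limma adjusted p = 8.34e-08). THBS1 rose by 0.34 in HMLE cells, a difference of -1.47 (limma adjusted p = 4.15e-10), and DKK1 changed there by 0.13, a difference of -1.59 (limma adjusted p = 2.31e-07). DKK1 also turned with time in HMLE-TWIST1 cells, at -1.46 at day 2 and 0.79 at day 4 (difference -2.26, limma adjusted p = 4.27e-14). IL7R, a cytokine receptor chain, did likewise, at -1.13 at day 2 and 1.24 at day 4 (difference -2.38, limma adjusted p = 7.19e-15).

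Many mesenchymal genes fell. Of 41 tested members, 18 fell and 0 rose, where 7.67% of all genes fell, and the median log2 fold change was -0.25, with 35 of 41 members negative. Summed over the list, knockdown libraries held 45264 to 47037 CPM and scramble libraries 57041 to 59591 CPM. FN1 (fibronectin) carried much of that sum, with 18240, 17150 and 18010 CPM in knockdown libraries, against 24750, 24190 and 23200 CPM in scramble libraries (-0.43, SE 0.05, limma adjusted p = 5.29e-06). In HMLE cells, where 16.5% of all genes fell and 12.8% rose, 14 members fell and 4 rose, with a median of -0.13. The knockdown effect was higher in HMLE-TWIST1 cells for 3 members and lower for 6, where 7.49% of all genes were higher and 4.83% lower. In bulk RNA, fewer cells of a type and less RNA per cell cannot be told apart.

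Beside TNC and FN1, the falls covered matrix proteins and their modifiers. COL6A3, a collagen chain, had 1243, 1184 and 1153 CPM in knockdown libraries, against 1951, 1904 and 1857 CPM in scramble libraries (-0.67, SE 0.06, limma adjusted p = 7.29e-07). LOX, which crosslinks collagen, changed by -0.67, the surface glycoprotein THY1 by -0.54 and the secreted FSTL1 by -0.41, and all 3 passed the test. CDH2 (N-cadherin) had 94.8, 90.7 and 90.8 CPM in knockdown libraries, against 80.8, 76.7 and 80.7 CPM in scramble libraries (0.21, SE 0.12), and did not pass the test (limma adjusted p = 0.287). A fit on the 6 libraries alone called 27 members lower and 3 higher, CDH2 among those higher (0.20, limma adjusted p = 0.0166).

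Among the transcription factors of the transition, 4 of 16 fell and 2 rose, where 7.67% of all genes fell and 7.79% rose. SNAI2 (Slug) had 194, 191 and 186 CPM in knockdown libraries, against 269, 256 and 260 CPM in scramble libraries (-0.46, SE 0.05, limma adjusted p = 4.04e-06), and TWIST1 itself changed by -0.48 (SE 0.09, limma adjusted p = 0.00173). SNAI2 changed by -0.11 in HMLE cells, a difference between lines of -0.35 (limma adjusted p = 0.00321). TWIST1 was lower on knockdown in HMLE cells too, at a mean of 8.91 CPM against 13.5 CPM in scramble libraries. ZEB1, a repressor of CDH1, had 760, 824 and 710 CPM in knockdown libraries, against 1037, 1044 and 1062 CPM in scramble libraries. Its groups did not overlap, as for 34.0% of all genes, yet the fit over 12 libraries did not call it (-0.46, limma adjusted p = 0.316), whereas the fit on its own 6 libraries did (limma adjusted p = 2.84e-05). Without scramble replicate 1, 2 or 3 or knockdown replicate 3 in turn, 2 of the factors fell, while 7 fell with voom weights and 7 in the fit on 6 libraries.

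Genes of the TGF-beta response, which the transition often accompanies, fell in part. Of 22 tested 10 fell and 0 rose, where 7.67% of all genes fell, with a median of -0.37. TGFBI, a matrix protein named for its induction by TGF-beta, had 1378, 1281 and 1352 CPM in knockdown libraries, against 2527, 2563 and 2383 CPM in scramble libraries (-0.90, SE 0.06, limma adjusted p = 3.38e-09). The inhibitor of helix-loop-helix factors ID1 had 26.8, 24.9 and 26.9 CPM in knockdown libraries, against 54.1, 47.9 and 53.5 CPM in scramble libraries (-0.98, SE 0.06, limma adjusted p = 1.92e-09). ID3 changed by -0.81, the receptor TGFBR1 by -0.56 and the matricellular CYR61 by -0.55, each past the test. In HMLE cells, where 16.5% of all genes fell, 10 members fell, with a median of -0.36, and the difference between lines was higher for 3 and lower for 3 (7.49% and 4.83% of all genes).

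Epithelial genes showed no common direction. Of 42 tested, 6 rose and 4 fell, with a median of 0.02, where 7.79% of all genes rose and 7.67% fell. With voom weights 1 fell, and the fit on the 6 libraries alone gave 4 rises and 3 falls. In 27 of the 42 the scramble mean was below 0.763 CPM. DSP (desmoplakin), which links desmosomes to keratin, was the clearest rise, with 146, 169 and 170 CPM in knockdown libraries, against 81.8, 77.9 and 81.3 CPM in scramble libraries (1.00, SE 0.06, limma adjusted p = 4.37e-10). Its partner at the cornified envelope, PPL (periplakin), had 54.2, 53.4 and 61.8 CPM in knockdown libraries, against 43.9, 44.2 and 44.8 CPM in scramble libraries (0.35, SE 0.06, limma adjusted p = 0.000224). Rises in CGN (cingulin) and LLGL2, junction and polarity proteins, rested on few reads, with 13, 10 and 13 reads for CGN in knockdown libraries and 2, 6 and 6 in scramble libraries, and LLGL2 did not pass the filter of a fit on the 6 libraries alone.

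The same genes moved differently in HMLE cells. There 14 epithelial genes fell and 0 rose, where 16.5% of all genes fell. The knockdown effect was higher in HMLE-TWIST1 cells for 12 members and lower for 0, where 7.49% of all genes were higher and 4.83% lower. Most of the list has few reads in HMLE-TWIST1 cells, and false calls on simulated data gathered among genes with few reads in those cells. How those false calls divided by level in HMLE cells was not examined. DSP changed by -0.86 in HMLE cells, a difference between lines of 1.87 (limma adjusted p = 1.40e-10), and PPL by -0.76, a difference of 1.10 (limma adjusted p = 1.08e-07). KRT10, a keratin of differentiating layers outside these lists, changed by -0.47 in HMLE-TWIST1 cells and by -3.04 in HMLE cells (difference 2.57, limma adjusted p = 2.52e-10). At day 4 in HMLE-TWIST1 cells, DSP rose by 1.65, more than at day 2 (difference -0.66, limma adjusted p = 6.66e-08).

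Keratins of the mammary layers were divided. KRT18, a luminal keratin, had 18.7, 15.96 and 21.99 CPM in knockdown libraries, against 11.7, 11.0 and 11.7 CPM in scramble libraries (0.71, SE 0.09, limma adjusted p = 3.35e-05). KRT7, another luminal keratin, had 62.5, 48.9 and 55.4 CPM in knockdown libraries, against 111, 112 and 115 CPM in scramble libraries (-1.02, SE 0.07, limma adjusted p = 4.71e-09). Of the luminal list 1 of 10 rose and 3 fell (7.79% and 7.67% of all genes), and 1 fell without scramble replicate 1 or knockdown replicate 3. The basal keratin KRT14 had 3, 4 and 4 reads in knockdown libraries and 5, 2 and 5 in scramble libraries, and KRT5 had 43, 24 and 30 reads in knockdown libraries and 46, 31 and 43 in scramble libraries. Basal genes had 4 rises and 3 falls among 17 (7.79% and 7.67% of all genes), and leaving out 1 library at a time gave between 0 and 4 rises.

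Genes that separate the lines were also followed, as a description. In cells given the vehicle DMSO and taken at day 2, 2359 genes were higher and 2445 lower in HMLE-TWIST1 than in HMLE cells, with a log2 difference of at least 1 and an adjusted p under 0.05 in limma. Of the first set 2286 were tested here, and 53 rose (2.32%) and 309 fell (13.5%) on knockdown in HMLE-TWIST1 cells. Of the second 2405 were tested, and 370 rose (15.4%) and 199 fell (8.27%). The medians were -0.13 for the first set and 0.02 for the second. Among genes with an average log2 CPM of at least 2, the shares were 3.24% and 18.5% for the first set and 27.3% and 13.4% for the second, in the order rose and fell, beside 10.2% and 10.3% of all 11759 such genes. On simulated data the false calls of this fit gathered among genes with few reads in HMLE-TWIST1 cells. Of the second set, only 972 of the 2405 tested genes reached the average log2 CPM of 2. How the false calls divided by level in HMLE cells was not examined. In the fit on the 6 libraries alone, 106 of 2301 genes of the first set rose (4.61%) and 538 fell (23.4%), and 255 of 1538 of the second rose (16.6%) and 141 fell (9.17%), beside 8.30% and 10.2% of all genes in that fit.

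Genes of cholesterol synthesis and uptake fell at day 2. Of 24 tested 14 fell and 0 rose, where 7.67% of all genes fell, with a median of -0.30. INSIG1, the sterol sensor that holds back their transcription factor and is itself among its targets, had 159, 154 and 152 CPM in knockdown libraries, against 302, 288 and 307 CPM in scramble libraries (-0.95, SE 0.05, limma adjusted p = 3.18e-10). SQLE, squalene epoxidase, had 152, 141 and 141 CPM in knockdown libraries, against 268, 265 and 260 CPM in scramble libraries (-0.87, SE 0.05, limma adjusted p = 5.27e-10). HMGCS1, an early synthase of the pathway, changed by -0.77 and FDPS, a synthase of isoprenoid precursors, by -0.50, both past the test. The groups did not overlap for INSIG1 or SQLE.

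By day 4 this list stood on the other side of scramble. There 19 members rose and 1 fell, where 19.7% and 18.5% of all genes did, with a median of 0.64. The effect at day 2 was lower than at day 4 for 20 members and higher for 0 (10.8% and 9.08% of all genes). INSIG1 changed by -0.95 at day 2 and by 1.22 at day 4, a difference of -2.18 (limma adjusted p = 3.38e-15). HMGCS1 changed by -0.77 at day 2 and by 1.35 at day 4, a difference of -2.13 (limma adjusted p = 1.19e-13). In HMLE cells at day 2, where 16.5% of all genes fell, the list had 20 falls, 0 rises and a median of -0.54.

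Genes of hypoxia and glycolysis also lay on opposite sides of scramble at the 2 days. Of 20 tested 13 fell and 0 rose at day 2, where 7.67% of all genes fell, with a median of -0.31. At day 4 16 rose and 1 fell, where 19.7% and 18.5% of all genes did, with a median of 0.52. In HMLE cells at day 2, where 16.5% of all genes fell, 14 members fell and 0 rose, with a median of -0.36. CA9, a carbonic anhydrase and classic hypoxia marker, had 23.9, 23.4 and 20.7 CPM in knockdown libraries, against 36.3, 40.1 and 37.5 CPM in scramble libraries (-0.74, SE 0.09, limma adjusted p = 1.01e-05). LDHA, lactate dehydrogenase, had 1514, 1456 and 1553 CPM in knockdown libraries, against 1853, 1893 and 1838 CPM in scramble libraries (-0.30, SE 0.05, limma adjusted p = 0.000684). The differences between days were -2.68 for CA9 (limma adjusted p = 1.32e-08) and -0.98 for LDHA (limma adjusted p = 4.50e-11), and 19 members were lower at day 2 than at day 4 (10.8% of all genes). The labels give 48 h more in fresh medium before day 4, and its part in these differences cannot be told apart from that of time.

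**Figure D5:**
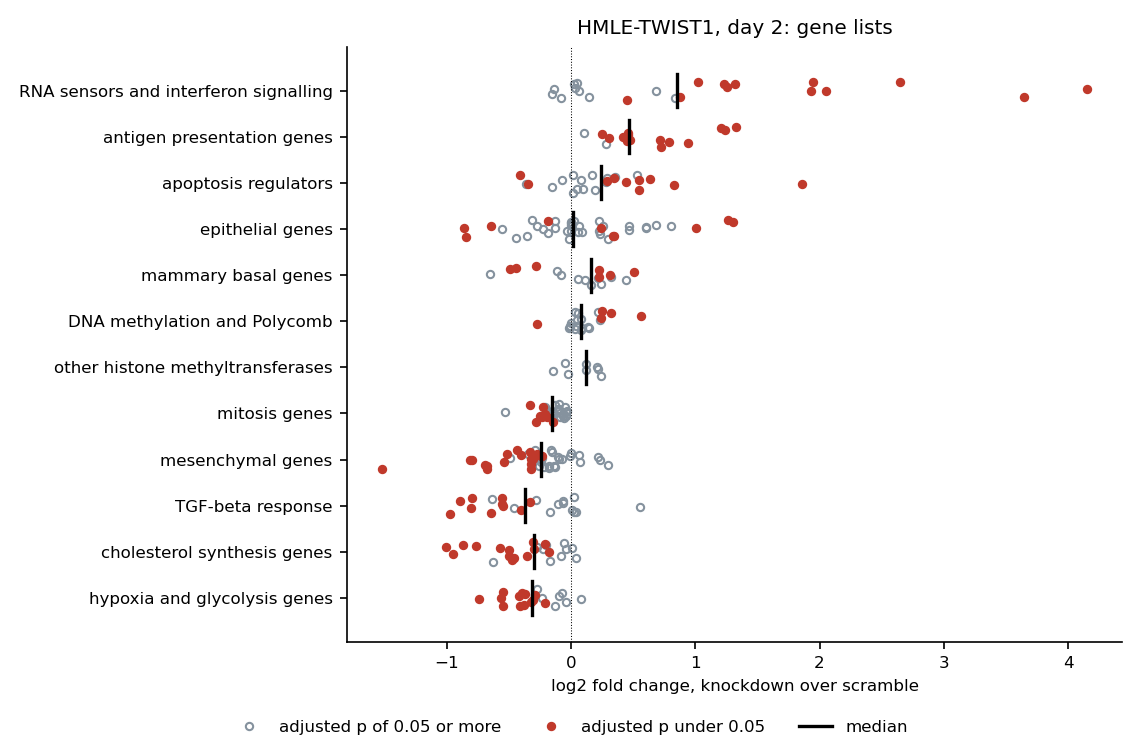
Log2 fold changes of knockdown over scramble in HMLE-TWIST1 cells at day 2 for the tested members of 12 gene lists; each point is 1 gene, filled where it passed the test, and the bar is the list's median. Medians ran from -0.37 for the TGF-beta response to 0.86 for RNA sensors and interferon signalling.

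Genes of mitosis were slightly lower. With the scaling used, all 28 had negative log2 fold changes, 8 fell and 0 rose, where 7.67% of all genes fell, and the median was -0.15. KIF20A, a kinesin of cytokinesis, had 186, 193 and 187 CPM in knockdown libraries, against 219, 221 and 221 CPM in scramble libraries (-0.23, SE 0.05, limma adjusted p = 0.0059), and the cyclin CCNA2 changed by -0.24 (SE 0.06, limma adjusted p = 0.00953). In HMLE cells 22 of the 28 rose, where 12.8% of all genes rose, with a median of 0.45. The effect was lower in HMLE-TWIST1 cells for 22 members and higher for 0, where 4.83% of all genes were lower. The count of falls depended on the settings, with 3 under scaling to total reads, 2 without scramble replicate 1 or 3 and 4 without scramble replicate 2 or knockdown replicate 2. DNA replication genes had 2 rises and 2 falls among 30, and no more of either when 1 library at a time was left out.

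Regulators of cell death rose more often than they fell, with 8 rises and 2 falls among 24 tested (7.79% and 7.67% of all genes) and a median of 0.24. Beside TNFSF10 they held PMAIP1 (NOXA), a pro-death relative of BCL2, with 29.2, 31.4 and 29.0 CPM in knockdown libraries, against 18.6, 14.4 and 17.4 CPM in scramble libraries (0.83, SE 0.08, limma adjusted p = 1.51e-06). The death receptor FAS had 50.1, 56.7 and 46.8 CPM in knockdown libraries, against 35.5, 33.9 and 35.2 CPM in scramble libraries (0.55, SE 0.08, limma adjusted p = 0.000156). FAS and SPATA18 (0.63) were also among 6 rises of 23 tested p53 targets, against 2 falls, SESN1 (-0.46) among them. CDKN1A, the p53 target that halts the cycle, changed by 0.15 and did not pass the test (limma adjusted p = 0.129).

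WNT genes had 4 rises and 5 falls among 26 (7.79% and 7.67% of all genes). Of the falls, DKK1 and AXIN2 (-1.31, limma adjusted p = 0.00321) are known targets of the pathway that also inhibit it. FZD6, a receptor, had 223, 230 and 200 CPM in knockdown libraries, against 155, 160 and 146 CPM in scramble libraries (0.50, SE 0.06, limma adjusted p = 7.11e-06). The count of falls was 8 in the fit on 6 libraries, 2 without scramble replicate 1 and 3 without scramble replicate 2, and 2 rose without scramble replicate 1 or 2, without knockdown replicate 2 or 3 and on RPKM as deposited. Growth factor receptors and ligands had 1 rise and 7 falls among 27, namely FGF2 (0.62, limma adjusted p = 0.00051) and falls such as GAS6 (-0.49, limma adjusted p = 4.50e-05), with 2 falls without scramble replicate 1 and 4 without scramble replicate 3 or knockdown replicate 1 or 2.

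No other histone methyltransferase of the list passed the test. Of 8 tested (SETDB1, SETDB2, EHMT1, EHMT2, PRDM2 and MECOM, linked to H3K9, and SUV420H1 and SUV420H2, which methylate histone H4), 0 passed in limma and 3 had an unadjusted p under 0.05, and 1 passed, as a rise, without scramble replicate 2. They had a median of 0.12 and log2 fold changes between -0.15 and 0.24. SETDB1 changed by 0.21 (limma adjusted p = 0.0928) and EHMT2 (G9a) by -0.05 (limma adjusted p = 0.775). CBX5, the HP1 protein that binds the mark, had 745, 736 and 719 CPM in knockdown libraries, against 744, 738 and 730 CPM in scramble libraries (-0.01, limma adjusted p = 0.946). Of 11 H3K9 demethylases 2 rose and 0 fell (7.79% and 7.67% of all genes), KDM7A by 0.42 (SE 0.08, limma adjusted p = 0.00202). Under scaling to total reads 4 rose, but 1 rose without scramble replicate 1 or 2 or knockdown replicate 1 or 2.

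Among DNA methylation and Polycomb genes 4 of 21 rose and 1 fell, where 7.79% of all genes rose and 7.67% fell. Of these, 2 rose without scramble replicate 3 or knockdown replicate 1. TET3, which oxidises methylated cytosine, had 83.9, 78.9 and 92.3 CPM in knockdown libraries, against 58.6, 60.1 and 54.1 CPM in scramble libraries (0.56, SE 0.07, limma adjusted p = 1.36e-05). DNMT1, the maintenance methyltransferase, changed by -0.27 (SE 0.05, limma adjusted p = 0.00123). Of 13 genes of RNA interference 3 rose and 1 fell (7.79% and 7.67% of all genes), and 1 rose without scramble replicate 1 or 3 or knockdown replicate 1 or 2. DICER1, which cuts double-stranded RNA into short duplexes, had 203, 198 and 187 CPM in knockdown libraries, against 125, 133 and 125 CPM in scramble libraries (0.62, SE 0.05, limma adjusted p = 1.11e-07).

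Markers of other cell types were low in both groups. Of 14 leukocyte markers 6 were listed and 2 tested in limma, of which 0 passed, and their sum was 3.74 to 4.12 CPM in knockdown libraries and 3.89 to 4.69 CPM in scramble libraries. Endothelial markers summed to 7.72 to 8.43 CPM in knockdown libraries and 11.1 to 13.0 CPM in scramble libraries. Adipocyte markers summed to 32.9 to 39.1 CPM in knockdown libraries and 44.7 to 49.3 CPM in scramble libraries. In the endothelial list 1 of 5 tested members fell (KDR, -1.10) and EMCN had no read in the 6 libraries. In the adipocyte list 1 of 5 fell (CIDEC, -1.14), where 7.67% of all genes fell. KDR had few reads and CIDEC none in HMLE cells, so both entered the test through HMLE-TWIST1 libraries alone. Neither was called with a prior count of 0.5 (limma adjusted p = 0.133 for KDR and 0.066 for CIDEC). Neither leukocyte marker tested, CD14 and CORO1A, had an unadjusted p under 0.05. The part of these markers in any result was not tested.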

How the data were processed

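The study measured total RNA by sequencing of stranded libraries depleted of ribosomal RNA. Values are log2 RPKM per gene symbol, deposited by the authors, and the submitters' processing notes name STAR, HTSeq and the human build hg19, with versions not given in the sources used here. In the authors' table, values of the 24 duplex libraries rise in equal steps on the linear scale from an offset of 2.0 reads, and whole reads were recovered for 100.0% of values (within 0.001 of a whole number). A further table of 81 unnamed columns was left unused, because nothing in it names its samples.

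Library scaling used trimmed log ratios (30% of ratios and 5% of levels removed on each side), and reads were turned into CPM. A gene was kept when at least 3 libraries held the equivalent of 10 reads and all together held 15. Log2 CPM with a prior count of 2 was tested with limma 3.58.1 (trend and robust moderation, statmod 1.5.0, R 4.3.3). The 4 duplex groups of day 2 (12 libraries) shared a fit, which gave the comparison of knockdown with scramble in each line and the difference between lines. All 24 duplex libraries shared the fit for day 4 and for differences between days. Tests were two-sided with Benjamini-Hochberg adjustment at 0.05. At 10589420 to 15662385 reads per library, counting error limits genes with few reads.

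Named genes were the targets, 8 markers, the 8 largest rises and falls among genes without overlap whose average log2 CPM reached 2, for every list the (up to) 4 members of smallest adjusted p, and the 4 genes with the smallest adjusted p in each difference. Other members are named as further examples, chosen after their values were seen, and a few members are not reported here. The members and the 30 gene lists were chosen with earlier results of these data known, and 4 lists (antigen presentation, zinc finger, histone and ribosomal protein genes) were written after the values were seen. On simulated data the fit recovered changed genes, but its false calls gathered among genes with few reads in HMLE-TWIST1 cells. They were not divided by level in HMLE cells. Alternatives changed the scaling, the filter, the prior count, the weights, the replicate block, the libraries in the fit, the scale (RPKM as deposited) and left out each library in turn.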

Additional observations from a re-analysis of the deposited data

Results flagged for a closer look

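The knockdown effect at day 2 differed between HMLE-TWIST1 and HMLE cells for 2183 genes, by the limma test of the difference itself, and the following log2 differences (HMLE-TWIST1 minus HMLE) were past its threshold. Among the targets and transition factors they were -0.79 for SUV39H2 and -0.35 for SNAI2. Among interferon genes MX1 (1.55), OAS1 (1.57) and USP18 (0.80) rose more in HMLE-TWIST1 cells. IFI44L (-2.97), PARP9 (-0.62), IFITM3 (-1.25) and EIF2AK2 (-0.86) rose less there than in HMLE cells. The matrix genes TNC (-1.16), THBS1 (-1.47) and THY1 (-0.96), with DKK1 (-1.59) and GLUL (-1.04), were lower. The epithelial genes DSP (1.87) and PPL (1.10), the keratin KRT10 (2.57) and TET3 (0.73) were higher. The mitosis genes KIF20A (-0.56) and CCNA2 (-0.61) were lower.

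The knockdown effect in HMLE-TWIST1 cells differed between day 2 and day 4 for 3736 genes, again by the limma test of the difference. Log2 differences (day 2 minus day 4) of interferon genes were -3.49 for OAS2, -1.48 for MX1, -3.48 for MX2, -3.03 for OASL and -3.33 for BST2. Among genes that fell at day 2 they were -1.32 for SGPP2, -1.83 for CXCL13, -2.26 for DKK1, -2.38 for IL7R and -1.30 for ID1. Mesenchymal and epithelial genes gave 0.75 for FN1, -0.27 for SNAI2 and -0.66 for DSP. Cholesterol genes gave -2.18 for INSIG1, -1.20 for SQLE and -2.13 for HMGCS1, and hypoxia and glycolysis genes gave -2.68 for CA9, -1.33 for ALDOC and -0.98 for LDHA.

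The genes with the smallest adjusted p between days were CALR, a chaperone of the endoplasmic reticulum (-1.94), ZMYND8, a chromatin reader (-1.58), TIMP3, an inhibitor of metalloproteinases (1.92), and RPL5, a ribosomal protein (1.91). CALR, ZMYND8 and RPL5 did not pass the test at day 2 itself, where their log2 fold changes were 0.06, 0.11 and 0.11, while at day 4 they were 1.99, 1.69 and -1.82.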

How the results depend on the processing

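The counts of genes that rose (1381) and fell (1360), the falls of SUV39H1 and SUV39H2 and the counts of differences between lines and days kept their direction and side of the threshold, or stayed within 1.5 times, under every alternative run. Leaving out 1 library at a time gave 936 to 1340 rises, 940 to 1336 falls, log2 fold changes of -1.45 to -1.31 for SUV39H1 and of -1.29 to -1.05 for SUV39H2, 1468 to 2628 differences between lines and 3201 to 3582 between days. The other settings gave 1165 to 1637 rises, 1058 to 1641 falls, 1849 to 2405 differences between lines and 3571 to 4432 between days. The fit on the 6 libraries alone gave 1339 rises and 1641 falls, of which 1168 rises and 1252 falls were also called over 12 libraries.

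The labels give both groups the numbers 1 to 3. Deviations of same-numbered libraries had correlations of 0.177, -0.177 and -0.007, and those of other pairs ran from -0.225 to 0.19. With 3 libraries in a group, these values cannot tell whether same-numbered libraries share more than a number. With the replicate block, 1432 genes rose and 1416 fell, SUV39H1 was at -1.39 and SUV39H2 at -1.20, and 2386 genes differed between lines and 3631 between days.

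Of 186 genes examined singly, 148 were called at day 2, 108 of these kept their call in every alternative and 0 changed sign. All 20 called differences between lines and all 23 between days kept theirs. The fall of VIM was not called in the fit of all 24 libraries (-0.32, limma adjusted p = 0.236), and the cause was not tested. Depth limits the epithelial genes, of which 27 had scramble means below 0.763 CPM.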

Other observations

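Several gene groups moved little at day 2 in HMLE-TWIST1 cells. Of 482 zinc finger genes tested, a family in which many members sit in clusters marked by H3K9 methylation, 21 rose and 4 fell, with a median log2 fold change of 0.05, where 7.79% of all genes rose and 7.67% fell. The rises were 34 in the fit on 6 libraries, 8 to 12 without scramble replicate 1, 2 or 3 or knockdown replicate 1 or 2, and the falls 2 to 9 over the alternatives. At day 4, where 19.7% of all genes rose and 18.5% fell, 127 rose and 27 fell, with a median of 0.15. Replication-dependent histone genes had 7 rises and 1 fall among 58, with a median of 0.11, while 34 rose in HMLE cells at day 2 (12.8% of all genes) and 38 fell in HMLE-TWIST1 cells at day 4. The 7 rises were 3 without scramble replicate 2 or knockdown replicate 3, 4 without knockdown replicate 1 and 3 in the fit of 24 libraries. Ribosomal protein genes had 13 rises and 0 falls among 78 and a median of 0.15 at day 2, and 66 fell at day 4. The effect was higher at day 2 than at day 4 for 63 ribosomal protein genes and 34 histone genes (9.08% of all genes). Ribosomal protein rises were 3 without scramble replicate 3, 22 without knockdown replicate 2 and 8 without any 1 of the other 4 libraries.

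Lists of stress responses and some further lists are given here beside 7.79% of all genes that rose and 7.67% that fell. Their counts moved when 1 library was left out. Heat shock genes had 2 rises and 1 fall among 13, with DNAJA1, a co-chaperone, at 0.59, and there was 1 rise without scramble replicate 1, 2 or 3 or knockdown replicate 3, and between 0 and 3 falls. ATF4 and unfolded protein genes had 3 rises and 2 falls among 24, with 1 rise without scramble replicate 1, 2 or 3 and 1 fall without any 1 library except knockdown replicate 3. Genes of NRF2 and thioredoxin had 2 rises and 1 fall among 15, with 1 rise without any 1 library except knockdown replicate 3, 3 falls without that one and 0 falls without any of the others except knockdown replicate 1. Immediate early genes had 5 rises and 4 falls among 22, with 3 rises without scramble replicate 2 or knockdown replicate 3. Of 29 germline genes 5 were tested and 1 rose, which was not called without scramble replicate 2 or knockdown replicate 2 or 3. H3K9 readers and heterochromatin partners had 3 rises and 2 falls among 20, with a median of 0.05, and had 1 rise without scramble replicate 3 and 1 fall without scramble replicate 1 or 2 or knockdown replicate 2.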
